A study of Mus musculus with 4 samples.

Results

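The 10 genes described here encode 9 chemokine ligands (*Ccl2*, *Ccl7*, *Ccl11*, *Cxcl1*, *Cxcl5*, *Cxcl12*, *Cxcl14*, *Cxcl16* and *Cx3cl1*) and the atypical chemokine receptor *Ackr3*. They were taken by name from the 27612 genes that the tables hold. They were measured by single-cell RNA sequencing in 4 mouse neural stem cell (NSC) lines, which had been derived from epiblast stem cells (EpiSCs) of the 129/Sv strain and were sequenced as 1 library each. All 4 lines grew in EGF and FGF2, each at 10 ng/ml. XN4 and XN1 additionally received 10 µM XAV939, a tankyrase inhibitor that dampens Wnt signaling, CN4 received 2 µM CHIR99021, a GSK3 inhibitor that activates it, and KN1 received no addition. The XAV939 of XN4 and of XN1 came from different suppliers, and that given to XN1 formed crystals in the medium. Each line is 1 library, so line and library cannot be told apart, and differences between lines carry no replicate check. Cells were detached with Accutase and kept in the preservative CellCover before capture.

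Chemokines are small secreted proteins that guide migrating cells through G protein-coupled receptors. The CC ligands of the *Ccl2* group attract monocytes and eosinophils, and *Cxcl1* and *Cxcl5* attract neutrophils through *Cxcr2*. *Cxcl12* acts through *Cxcr4* on neural precursors, hematopoietic cells and interneurons, and *Ackr3* binds and removes it. *Cx3cl1* and *Cxcl16* differ from the others in being made as membrane-bound proteins that metalloproteases shed. The inflammatory ligands are known targets of NF-kB, whereas *Cxcl12* is a constitutive product of many mesenchymal cells.

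The 10 genes lie on 6 chromosomes (GRCm38, GENCODE annotation), and 5 of them sit in the 2 chemokine gene clusters that were looked at. On chromosome 11, *Ccl2* (82035571 to 82037453), *Ccl7* (82045712 to 82047525) and *Ccl11* (82057823 to 82062955) are consecutive genes on the plus strand, separated by 8.26 and 10.3 kb. *Cxcl16* (70453983 to 70459984, minus strand) is elsewhere on this chromosome. On chromosome 5, *Cxcl5* (90759360 to 90761624) and *Cxcl1* (90891241 to 90893115) are at either side of *Ppbp*, *Pf4*, *Cxcl3* and *Cxcl15*, and *Cxcl2* follows *Cxcl1*. *Cxcl12* (chromosome 6, 117168535 to 117181367, plus strand), *Cxcl14* (chromosome 13, 56288643 to 56296551, minus strand), *Cx3cl1* (chromosome 8, 94772009 to 94782427, plus strand) and *Ackr3* (chromosome 1, 90203980 to 90216751, plus strand) are each the only member on their chromosome. Other chemokine genes near them were not looked for. *Ccl2* overlaps the gene model *Gm17268* and *Cxcl16* overlaps *Zmynd15*, in both cases on the opposite strand. The strand setting of the counting is not given in the sources used here, so reads of these overlaps cannot be told apart.

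Promoter sequences were at hand for 5 of the 10 genes (RefSeq, GRCm38.p6), and 3 are shown because their genes had 3 different patterns over the lines. Each is the stretch before the first annotated transcript, read 5′ to 3′ on the strand of the gene, with matches to 4 motifs in capitals. The motifs, searched on both strands, were the NF-kB consensus, the AP-1 site TGANTCA, the TATA box TATAAA and the TCF/LEF site CTTTGAT, through which Wnt signals act. The *Cxcl1* stretch is at chr5:90890995-90891240, that of *Cxcl12* at chr6:117168285-117168534 and that of *Cxcl14* at chr13:56296552-56296801.
Cxcl1: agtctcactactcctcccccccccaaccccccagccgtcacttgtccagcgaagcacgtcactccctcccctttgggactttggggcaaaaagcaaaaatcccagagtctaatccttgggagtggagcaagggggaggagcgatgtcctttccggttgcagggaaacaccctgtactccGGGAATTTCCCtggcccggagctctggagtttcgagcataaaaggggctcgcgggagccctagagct
Cxcl12: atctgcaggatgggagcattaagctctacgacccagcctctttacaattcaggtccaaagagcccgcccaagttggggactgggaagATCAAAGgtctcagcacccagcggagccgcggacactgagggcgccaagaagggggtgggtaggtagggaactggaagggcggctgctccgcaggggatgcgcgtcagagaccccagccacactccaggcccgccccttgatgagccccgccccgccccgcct
Cxcl14: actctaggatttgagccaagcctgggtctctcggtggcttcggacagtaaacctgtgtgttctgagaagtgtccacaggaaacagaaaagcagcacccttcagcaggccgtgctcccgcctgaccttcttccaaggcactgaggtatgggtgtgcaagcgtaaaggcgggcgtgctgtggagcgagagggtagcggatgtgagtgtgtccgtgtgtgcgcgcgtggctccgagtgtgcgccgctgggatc
The *Cxcl1* stretch matched the NF-kB consensus at 2 overlapping positions, 67 and 66 bases before its end. The *Cxcl12* stretch matched the TCF/LEF site once, on the opposite strand and 163 bases before its end, and the *Cxcl14* stretch matched none of the 4 motifs. The *Ackr3* stretch held 1 TATA box, 8 bases before its end, and the short stretch of *Cx3cl1* outside its transcripts held no match. Among 32851 RefSeq promoters cut to 250 bases, 7.25% held the NF-kB consensus, 6.75% the AP-1 site, 12.4% the TATA box and 3.21% the TCF/LEF site. These matches describe the letters and were not tested as binding sites.

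The tables of normalized values held 3927 cells of XN4, 3905 of XN1, 3975 of KN1 and 3448 of CN4, with medians of 4637 to 7796 reads per cell. Tables of all reads held 8741 cells of XN4, 14452 of XN1 and 18157 of CN4, and none was used for KN1. The KN1 library stood apart, with a median of 833 genes detected per cell against 2257 to 2824 in the other normalized tables. Its reads were concentrated in fewer genes per cell (7.39 reads per gene detected, against 2.14 to 3.9), and the order of KN1 among the lines can differ between shares and levels. Libraries shared between 37 and 320 cell barcodes pairwise.

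The labelled cell type was checked with fixed marker lists. XN1 had 8, KN1 9 and CN4 10 of 10 neural progenitor markers in at least 5% of cells, and *Sox2*, the neural stem cell factor, was captured in 63.5%, 13.9% and 85.9% of cells (levels 3.05, 1.17 and 5.84 reads per 10000 reads). In XN4 this held for 4 of 10 markers, *Sox2* was captured in 0.561% of cells, and *Fabp7* and *Hes5* had no read in any cell, nor had *Olig1* of the oligodendrocyte precursor list, while *Vim*, which fibroblasts share, was in 84.8%. Conversely, 14 of 15 fibroblast markers were in at least 5% of XN4 cells, among them the fibrillar collagen *Col3a1* in 97.7%, against 6, 1 and 4 in XN1, KN1 and CN4. The summed level of the fibroblast markers was 131.0 reads per 10000 reads in XN4 and 5.02 to 11.2 in the other lines, and that of the neural progenitor markers was 14.4 against 21.3 to 84.2. *Vim* alone made 13.3 of the 14.4 in XN4, and 4.87 to 22.6 in the other lines. The fibroblast marker *Fbln2* ran against its list, at 0.17 in XN4 and 8.7, 4.54 and 2.63 in XN1, KN1 and CN4. The XN4 values below therefore describe cells in which 6 of the 10 neural progenitor markers were each captured in under 1% of cells, and the part of these markers' differences in the chemokine values was not tested. Of 7 endothelial markers, *Emcn* alone reached 5% of cells, in XN4 (64.0%). Macrophage markers, which chemokine-rich samples could carry, had no member at 5% of cells in any line, with summed levels of 0.0662 to 0.214, and *Ptprc*, the pan-leukocyte marker, was in 0.252% of XN4 cells.

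Levels are given as reads of a gene per 10000 reads pooled over the cells of the normalized tables, with exact 95% Poisson intervals, and shares as the percentage of cells with at least 1 read, with exact Clopper-Pearson intervals. Both kinds of interval cover counting error only. Reads are not molecules, and the Poisson intervals treat each read as independent, so they can be too narrow. A gene was called higher in a line when its level was at least 4 times that in every other line and it was captured in at least 1% of the cells. XN4 was the line with the highest level for 8 of the 10 genes, CN4 for *Cxcl14* and XN1 for *Ackr3*. In the tables of all reads, *Cxcl1* was instead higher in XN1 (1.63) than in XN4 (1.55). How many of all genes were highest in XN4 was not computed, so this count does not set the members apart. In XN4, 5 of the 8 tested members were called (*Ccl7*, *Ccl11*, *Cxcl5*, *Cxcl12* and *Cxcl16*), where 733 of 12521 genes, or 5.85%, were called. None of 6 tested members was called in XN1 (all genes, 1.2%), none of 2 in KN1 (4.74%), and 1 of 5, *Cxcl14*, in CN4 (0.866%). With 5 of the genes in 2 neighborhoods and all read in the same 4 libraries, these members are not independent observations. They were also chosen with earlier results of these data known, so their called shares are no test of chemokine genes.

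**Figure D1:**
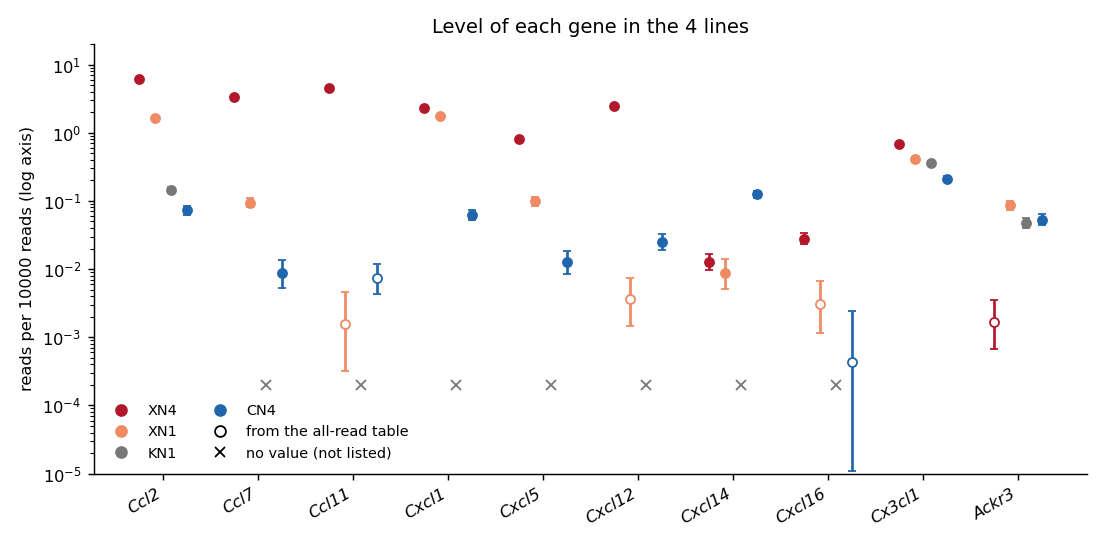
Level of each gene (reads per 10000 reads, log axis) in the 4 lines, with exact 95% Poisson intervals; open points are genes that the line's normalized table does not list, read in the same cells from its table of all reads, and crosses mark genes that the KN1 table does not list. XN4 is highest for 8 genes, while *Cxcl14* peaks in CN4 (0.124) and *Ackr3* in XN1 (0.0872).

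The 3 CC ligands were highest in XN4, but differed in how far XN1 followed. *Ccl2*, a monocyte attractant, had a level of 6.15 in XN4 (interval 6.07 to 6.23) and of 1.65 in XN1 (1.59 to 1.71). The KN1 level was 0.145 (0.131 to 0.160), and CN4 was lowest at 0.0732 (0.0626 to 0.0852). It was thus graded over the lines rather than limited to XN4, with XN4 3.73-fold above XN1 and XN1 22.5-fold above CN4. It was captured in 37.0% of XN4 cells, 15.8% of XN1, 1.61% of KN1 and 1.75% of CN4.

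*Ccl7*, which attracts monocytes through several CC receptors, reached a level of 3.33 in XN4. Its levels in XN1 and CN4 were 0.0944 and 0.00872, and the KN1 table did not list it. The XN4 level was 35.3-fold above that of XN1 (interval 30.5 to 41.0), and the shares were 39.4% and 1.90% of cells. On the log2 scale this ratio was 5.14, and 7.03 without the 1% of cells of each line with the most reads of the gene, which held 77.5% of the XN1 reads. XN4 and XN1 therefore differed far more in *Ccl7* than in its neighbor *Ccl2*.

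*Ccl11*, eotaxin, was captured in 65.8% of XN4 cells (64.8 to 66.8), at a level of 4.54. In XN1 it had 4 reads in 3 of 14452 cells, in CN4 48 reads in 21 of 18157 cells, and the KN1 table did not list it. Its XN4 level was 1167-fold above that of CN4 in these tables of all reads (interval 880 to 1583) and 612-fold in the normalized tables (382 to 1051), where CN4 had 17 reads in 6 cells. Over the 3 consecutive genes of chromosome 11, the share of XN1 cells thus went from 15.8% to 1.90% to 0.0208%, while that of XN4 cells went from 37.0% to 39.4% to 65.8%. The next genes of the cluster, *Ccl12* and *Ccl8*, were captured in at most 0.137% of cells of XN4, XN1 or CN4.

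**Figure D2:**
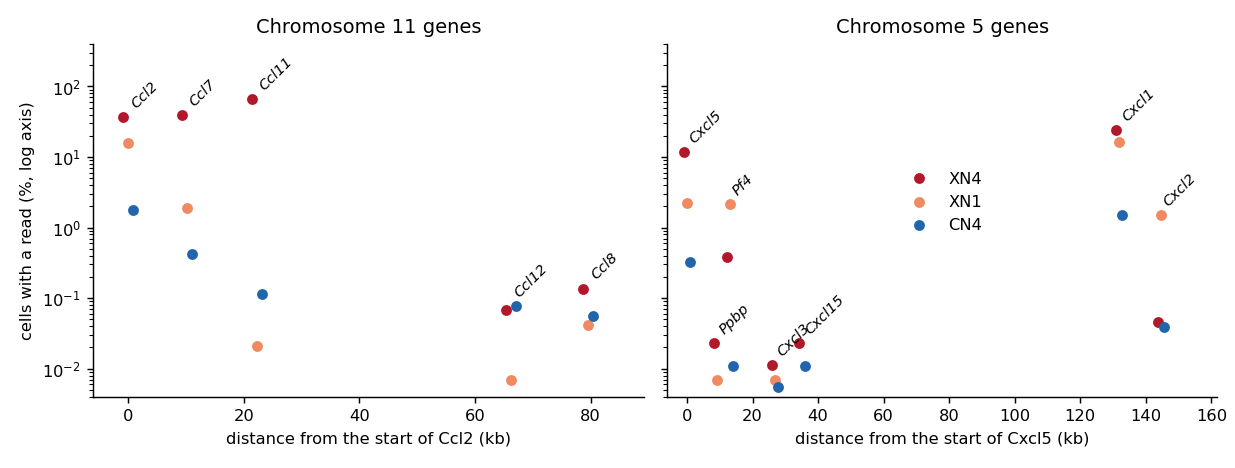
Percentage of cells with a read (log axis) for the genes of the chromosome 11 cluster from *Ccl2* to *Ccl8* and of the chromosome 5 cluster from *Cxcl5* to *Cxcl2*, against the distance from the start of the first gene in kb, with the points of a gene set slightly apart; KN1 is left out. XN1 and XN4 points are close at *Ccl2* and *Cxcl1* and far apart at *Ccl11*, and *Pf4* and *Cxcl2* are higher in XN1 than in XN4.

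Of the neutrophil attractants, *Cxcl1* was the member in which the levels of XN4 and XN1 were closest. XN4 had a level of 2.27 (2.23 to 2.32), XN1 one of 1.76 (1.70 to 1.82) and CN4 one of 0.0623, and KN1 did not list the gene. The order of these levels turned in the tables of all reads, at 1.55 in XN4 and 1.63 in XN1, while the shares of their cells at 3600 reads kept it, at 14.5% and 13.2%. Both lines were above CN4 under either table, 36.5-fold and 28.2-fold in the normalized ones. The levels of *Cxcl5* were 0.813, 0.0981 and 0.0126 in XN4, XN1 and CN4, with shares of 11.8%, 2.2% and 0.330%. Between these genes on chromosome 5, *Pf4*, platelet factor 4, was captured in 2.16% of XN1 cells and 0.389% of XN4 cells. *Cxcl2*, a close relative of *Cxcl1* next to it, was captured in 1.49% of XN1 cells but in 4 cells, or 0.0458%, of XN4.

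*Cxcl12* and *Ackr3*, a ligand and its scavenging receptor, had opposite orders over XN4, CN4 and XN1. *Cxcl12* was captured in 40.7% of XN4 cells, 0.180% of XN1 and 1.16% of CN4, with levels of 2.47, 0.00363 and 0.0248, and was not listed in KN1. The shares of *Ackr3* were 3.38% in XN1, 2.57% in CN4, 0.730% in KN1 and 0.229% in XN4, with levels of 0.0872, 0.0532, 0.0475 and 0.00169. The XN1 level of *Ackr3* was 1.64-fold above CN4 (1.29 to 2.09), and that of CN4 was not separated from that of KN1 beyond counting error (interval of the ratio 0.867 to 1.44). With at least 2 reads required, the *Ackr3* shares of XN1 and CN4 were close, at 0.823% and 0.788% of cells. *Cxcr4*, the signaling receptor of *Cxcl12*, was captured in 13.7% of CN4 cells, 0.962% of XN1, 0.981% of KN1 and 0.320% of XN4 (levels 0.270, 0.0244, 0.0584 and 0.00457), and was the 1 called gene of 3 tested in CN4 (all genes, 0.866%) out of 22 other chemokine receptors. Both receptors of *Cxcl12* were thus lowest in XN4, the line where the ligand was highest.

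*Cxcl14*, a ligand of uncertain receptor found in many epithelia, was the only member highest in CN4. Its level was 0.124 there (0.110 to 0.139), 0.0128 in XN4 and 0.00882 in XN1, and it was captured in 6.26%, 0.435% and 0.201% of cells. Thinning to 3600 reads per cell brought these shares to 2.70%, 0.210% and 0.127%, in the same order. With at least 2 reads required they were 1.93% in CN4 and 0.320% in XN4. The log2 ratio of these 2 shares then fell from 3.85 to 2.59. A cell with the gene held few reads of it, with a median of 1 and a maximum of 11 reads in CN4.

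The membrane-bound ligands behaved differently from each other. *Cx3cl1*, fractalkine, was the member most evenly spread over the lines, from XN4 at 0.678 (0.653 to 0.703) over XN1 at 0.413 (0.384 to 0.442) and KN1 at 0.357 (0.335 to 0.380) to CN4 at 0.212 (0.193 to 0.231). The range from highest to lowest was 3.20-fold, and the counting intervals did not overlap. These intervals leave out the spread between cells, and the KN1 level rests on 985 reads in 201 cells. The shares placed KN1 last, at 5.06% of cells against 29.1%, 14.6% and 10.6%, in the library with few genes detected per cell. *Cxcl16* was rare throughout, in 1.41% of XN4 cells, 0.111% of XN1 and 0.0771% of CN4. Its call in XN4 was lost when cells were thinned to 3200 reads, and also when genes that KN1 does not list were set at the reads of 9 cells in place of 3 reads.

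**Figure D3:**
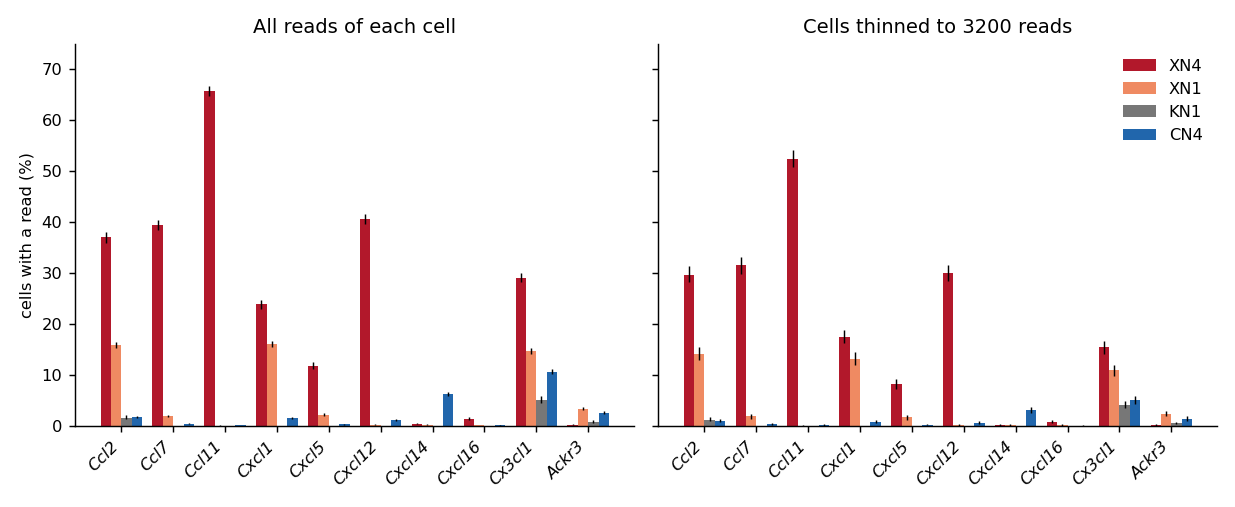
Percentage of cells with at least 1 read of each gene, with exact 95% Clopper-Pearson intervals, from all reads of each cell (left; KN1 from its normalized table) and after thinning the cells of the normalized tables to 3200 reads (right). XN4 bars lead for 8 genes in both panels, and the XN4 and XN1 bars of *Cxcl1* and *Cx3cl1* come closer after thinning.

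Together, at least 1 of the 10 genes was captured in 88.5% of XN4 cells, 36.1% of XN1, 21.6% of CN4 and 7.32% of KN1. At 3200 reads per cell the percentages were 81.9, 30.9, 11.4 and 5.80. Cells with 3 or more of the genes made up 29.1% of thinned XN4 cells, 2.88% of XN1 cells and 0.127% of CN4 cells, and none was found in KN1. The KN1 table lists 3 of the 10 genes, so its percentages are not comparable with those of the other lines and its cells could reach 3 genes at most.

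The reads of the ligands were unevenly spread over cells. In the table of all reads of XN4, the 1% of cells with the most *Cxcl5* reads held 50.4% of all its reads, and the same fraction held 37.0% of *Cxcl1*, 28.5% of *Ccl2*, 19.5% of *Cxcl12* and 19.3% of *Ccl7* reads. *Ccl11* (12.8%) and *Cx3cl1* (13.2%) were the least concentrated of the members captured in over 5% of cells. A single XN4 cell had 732 reads of *Ccl2*, while its median over cells with the gene was 6 reads. In XN1 the top 1% of cells held 45.6% of *Cxcl1* and 38.5% of *Ccl2* reads. The *Ccl2* level of XN4 was under 4-fold above XN1, and leaving out the top 1% of cells for each gene took it past that limit, while *Cxcl16* was then no longer called. On the log2 scale this *Ccl2* ratio went from 1.9 to 2.17. Other settings lowered it, to 1.67 in the tables of all reads and 1.58 after thinning to 3200 reads.

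To see which members were captured in the same cells, the number of cells with both genes of a pair was compared with the number expected from their shares within 20 strata of reads per cell. Of the 37 XN4 pairs with at least 10 expected cells, 7 exceeded 1.5 times the expected number, where 0.895% of all pairings of a member with a gene did so. All 7 joined 2 of *Ccl2*, *Ccl7*, *Cxcl1*, *Cxcl5* and *Cxcl16*, and the median over the 37 pairs was 1.06. The share over all pairings ran from 0% for *Ccl11* to 3.15% for *Cxcl16*. It pools genes of every capture rate, and widely captured genes allow only low ratios. That share is therefore not matched to the member pairs, and the same holds in the other lines. The pairs *Cxcl5* with *Cxcl16* (2.22, 1.61 to 2.98) and *Cxcl1* with *Cxcl5* (2.10, 1.94 to 2.26) led. *Ccl2* with *Ccl7* reached 1.49 (1.43 to 1.56), on 2237 cells against 1499 expected. *Ccl11*, next to *Ccl7* on the chromosome, had ratios of 1.07 with *Ccl2* and 1.08 with *Ccl7*, both with intervals above 1. Its capture in 65.8% of cells keeps any such ratio low, and 0 of its 17119 pairings with other genes exceeded 1.5, so the ratio cannot show whether it stands apart. *Cxcl12* was close to 1 with the 6 other widely captured members, from 0.948 with *Ccl2* to 1.15 with *Cxcl5*. The few cells with *Cxcl14* held fewer than the expected number with *Cxcl12* (7 cells against 17.6), *Ccl7* (8 against 20.1) and *Cxcl1* (5 against 12.4).

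In XN1, where fewer cells held these genes, the ratios were larger, and rarer genes allow a higher ratio. Of 14 pairs, 7 exceeded 1.5 times (all pairings, 1.4%), with a median of 1.52, led by *Ccl2* with *Ccl7* at 4.41 (3.84 to 5.04), *Ccl7* with *Cxcl1* at 3.99 and *Cxcl1* with *Cxcl5* at 3.92. *Ccl2* and *Cxcl1*, on different chromosomes, were found together in 1159 XN1 cells against 412 expected, a ratio of 2.81 (2.65 to 2.98). *Ackr3* was at or below the expected number with them, at 0.774 (0.596 to 0.988) with *Ccl2* and 0.299 (0.0616 to 0.873) with *Ccl7*. In CN4, 3 of 10 pairs exceeded 1.5 times (all pairings, 1.33%), each joining *Cx3cl1* to a rarer ligand, with at most 62 cells per pair. No KN1 pair reached 10 expected cells.

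**Figure D4:**
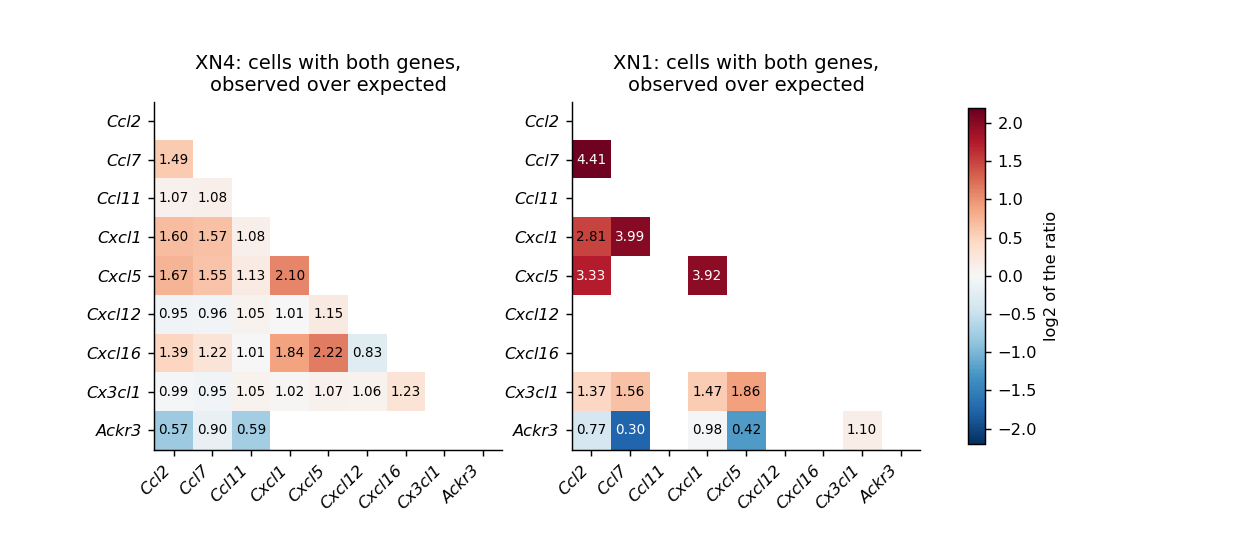
Cells with reads of both genes, as the observed over the expected number within 20 strata of reads per cell, for the pairs with at least 10 expected cells in XN4 (left) and XN1 (right); color is the log2 of the ratio, blank cells had fewer expected, and *Cxcl14* is not drawn. *Ccl2*, *Ccl7*, *Cxcl1* and *Cxcl5* are above 1 with each other where a ratio is given in both lines, and *Cxcl12* stays near 1 with *Ccl2*, *Ccl7* and *Cxcl1* in XN4. The ratios of *Ccl11* are held low by its capture in 65.8% of cells.

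Correlations over thinned cells use the number of reads, but unequal capture of 2 genes limits them too. In XN4 they gave *Ccl11* r = 0.23 with both *Ccl2* and *Ccl7* and 0.18 with both *Cxcl1* and *Cxcl5*. *Cxcl12* had -0.05, -0.03, 0.02 and 0.08 with the same genes. Over 3384 XN4 cells and 9899 genes captured in at least 5% of them, the genes closest to *Ccl2* were *Ccl7* (Pearson r = 0.49), *Cxcl1* (0.45) and *Lcn2* (0.36), which encodes the acute-phase protein lipocalin 2. *Lcn2* and *Saa3*, a serum amyloid A gene, were the closest to *Ccl11* (0.27 and 0.25), ahead of *Ccl2*, and to *Cxcl5* (0.38 and 0.43). The genes closest to *Cxcl12* were instead *Apod* (0.35), which encodes a lipid carrier, *Igfbp4* (0.29), an IGF-binding protein, and *Il1rn* (0.27), the interleukin 1 receptor antagonist. No gene reached 0.2 for *Cx3cl1* in XN4, nor for *Cxcl14* over 3158 cells and 9604 genes of CN4, its highest line. In XN1, *Ccl2* and *Cxcl1* had r = 0.57 over 3129 cells. These cells share a library and the number of reads, and sparse counts lower such values.

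XN4 cells were then divided into 4 subclusters with the 10 genes left out. Subcluster 1 (1859 cells) was shallow, with a median of 4590 reads. Subcluster 2 (1216 cells, 13582.5 reads) was led by *Fmo2*, *Postn* and *Ogn*, of which *Postn* and *Ogn* encode matrix proteins, and subcluster 3 (639 cells, 11989 reads) by the mitosis genes *Prc1*, *Ccna2* and *Top2a*. Subcluster 4 (213 cells, 17610 reads) was led by *Hmga2*, *Tnc* and *Spp1*, and it held *Spp1* in 81.2% and *Fosl1*, an AP-1 subunit, in 54.0% of its cells. In subcluster 4 the levels were 16.8 for *Ccl2*, 8.27 for *Ccl7* and 5.94 for *Cxcl1*, or 3.36, 2.95 and 3.15 times those of the other XN4 cells. With 1000 variable genes the subcluster held 609 cells and these ratios were 2.14, 1.95 and 2.54. Its cells were also the deepest, and the part of depth in these levels was not tested. *Cxcl12* went the other way, at 0.216 against 2.71 (a ratio of 0.0799, or 0.157 with 1000 variable genes), and so did *Apod*, captured in 38.5% of subcluster 4 and 91.4% to 92.3% of the others. *Cxcl12* was highest in subcluster 2 (3.41), where *Dpep1*, a membrane dipeptidase gene, was captured in 61.2% of cells against 14.6% in subcluster 4.

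**Figure D5:**
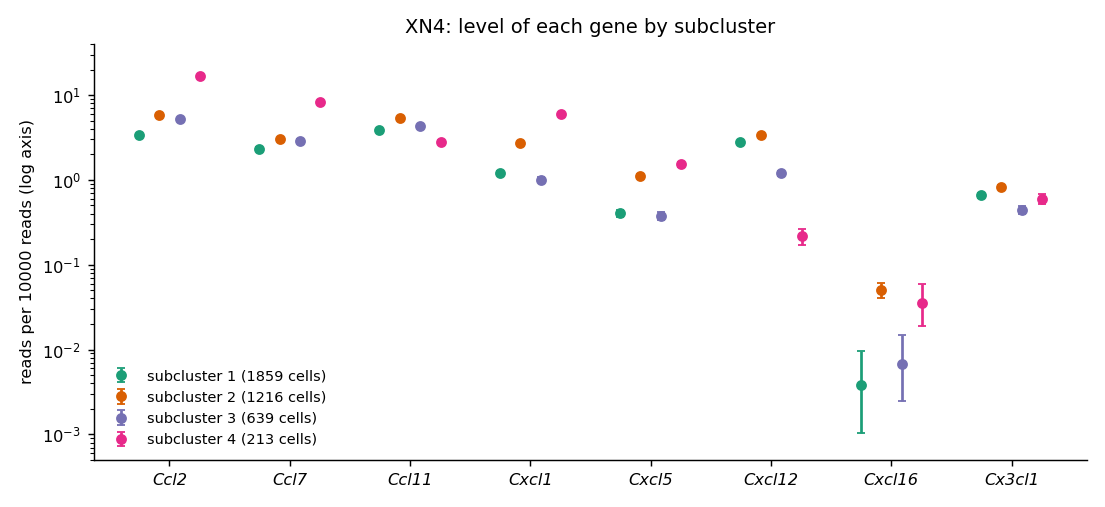
Level of 8 of the genes (reads per 10000 reads, log axis) in the 4 subclusters of XN4, with exact 95% Poisson intervals. Subcluster 4, with 213 cells, has the highest *Ccl2* (16.8), *Ccl7*, *Cxcl1* and *Cxcl5* points and the lowest *Cxcl12* point (0.216).

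*Ccl11* and *Cx3cl1* varied less over these subclusters, from 2.82 to 5.42 and from 0.442 to 0.823. Whether the *Spp1* subcluster was above or below the other cells for these 2 genes depended on the clustering, since with 1000 variable genes *Ccl11* was 1.14 times and *Cx3cl1* 1.26 times the other cells. The pairs within subclusters gave similar ratios to those over the whole line: in the clustered XN4 cells *Cxcl1* with *Cxcl5* was at 2.19 over depth strata and at 1.99 (1.76 to 2.24) with strata inside subclusters, and in XN1 *Ccl2* with *Cxcl1* was at 2.89 and 2.63. In XN1 the larger subcluster (2889 cells), led by *Abca1* and *Cd14*, had levels of 2.18 for *Ccl2* and 2.39 for *Cxcl1*, and the smaller one (1016 cells), led by *Mki67* and *Top2a*, had 0.348 and 0.213.

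Cells were also divided by the proliferation genes *Mki67* and *Top2a*, after thinning to 3200 reads. *Cxcl1* was captured in 6.47% (5.10 to 8.08) of XN1 cells with a read of either gene and in 16.9% (15.2 to 18.6) of cells with neither, and *Ccl2* in 9.26% and 16.9%. In XN4, *Cxcl1* was likewise captured in fewer of the cells with a proliferation read, 14.0% (11.9 to 16.2) against a share with an interval of 17.4% to 20.7%, and so were *Cxcl12* (24.5% against 32.5%) and *Cx3cl1* (10.1% against 17.8%). *Cxcl5* was at 6.36% and 8.95% in XN4, with overlapping intervals. The XN4 intervals also overlapped for *Ccl2*, at 30.8% (28.0 to 33.7) and 29.2% (27.4 to 31.1), and for *Ccl7*, at 33.2% and 30.7%. In CN4, *Ccl2* was captured in 0.441% (0.202 to 0.836) of cells with a proliferation read and 1.97% (1.24 to 2.96) of those without, and *Cxcl1* in 0.441% and 1.52% (0.888 to 2.42). The CN4 shares of *Cxcl14* were 2.84% (2.17 to 3.66) and 3.58% (2.57 to 4.84), and the KN1 shares of *Cx3cl1* 4.75% and 3.48%, both with overlapping intervals.

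Other genes of the pathway were counted from fixed lists. Of 27 other chemokine ligands, 2 were captured in at least 5% of XN4 cells and 1 in each other line, and this 1 was *Ccl25* throughout. Its share was highest in XN4 (18.3%, against 14.6% in CN4, 7.65% in XN1 and 12.6% in the normalized table of KN1). At 3200 reads per cell KN1 led instead (10.9%, against 8.84% in XN4), as it did by level (1.29, against 0.396 in XN4, 0.285 in CN4 and 0.188 in XN1). The second was *Ccl9*, in 5.10% of XN4 and 4.70% of XN1 cells, an order that turned at 3200 reads per cell (2.19% and 3.42%). *Ccl20* was called of 6 tested in XN4 (all genes, 5.85%), and *Cxcl2* and *Pf4* of 4 tested in XN1 (all genes, 1.2%). Of 22 chemokine receptors, *Ackr4*, which removes *Ccl25* and its relatives, was captured in 15.3% of XN4 cells, 15.9% of XN1, 2.34% of KN1 and 21.5% of CN4. At 3200 reads per cell these shares were 8.07%, 12.5%, 2.03% and 11.8%, so CN4 no longer led, and the levels were 0.396, 0.546, 0.178 and 0.553. The receptors of the abundant XN4 ligands were near absent there, with *Ccr2*, the receptor of *Ccl2* and *Ccl7*, in 3 cells, *Ccr3*, the receptor of *Ccl11*, in 6 cells and *Cxcr2* in 44 of 8741 cells. *Cx3cr1*, the receptor of *Cx3cl1*, was captured in 0.830% to 2.95% of cells over the lines.

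Of 15 NF-kB factors and inhibitors, 14 were captured in at least 5% of XN4 cells, against 12 of the list in XN1, 11 in CN4 and 5 in KN1. These cells differed in depth, with medians of 12615 reads in XN4, 5981.5 in XN1, 9173 in CN4 and 5862 in KN1. The share of all genes at that limit was not computed, so the counts do not single out NF-kB genes. *Nfkbie* was the 1 called gene of 15 tested in XN4, a share near the 5.85% of all genes. The inhibitor *Nfkbia*, itself an NF-kB target, was highest in XN4 (level 2.75), ahead of XN1 (0.893), CN4 (0.632) and KN1 (0.437), and so was its share at 3200 reads (40.2%, 18.7%, 14.8% and 5.12%). *Nfkb1* had its highest level in KN1 (2.96, against 1.30 in XN4), but its highest share in XN4 (44.8% against 25.5% in KN1, and 26.3% against 22.9% at 3200 reads). Of 20 cytokines and cytokine receptors, 12 were tested in XN4 and 3 were called (all genes, 5.85%): the interleukin 1 receptor *Il1r1* (58.8% of XN4 cells against at most 1.33%), the oncostatin M receptor *Osmr* (58.4% against at most 5.69%) and the endotoxin receptor *Tlr4* (13.9% against at most 1.13%). The ligands *Il1a*, *Il1b* and *Tnf* were captured in at most 4 cells of any line where they had a value. *Adam10* and *Adam17*, which shed *Cx3cl1* and *Cxcl16*, were not called in any line. In the order XN4, XN1, KN1, CN4, *Adam10* had levels of 1.16, 3.05, 0.966 and 2.22 and *Adam17* of 1.29, 1.51, 0.396 and 1.18. At 3200 reads per cell, in this order, *Adam10* was captured in 21.6%, 56.6%, 9.25% and 47.6% of cells and *Adam17* in 24.3%, 34.9%, 4.33% and 28.5%. *Mmp2* and *Mmp9*, which cleave several chemokines, were the called genes of 8 tested in XN4, *Mmp2* at a level of 13.8 against 0.205 to 1.64. None of 6 receptor transducers was called.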

How the data were processed

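Single cells of 4 NSC lines were captured on BD Rhapsody cartridges, 1 library per line. Per the file headers, the deposited read counts per cell came from the BD Rhapsody WTA Analysis Pipeline 1.12.1 (GRCm38, GENCODE release M19, intronic reads kept). The authors then took a random subset of cells, removed ribosomal protein and mitochondrial genes and deposited natural log values, scaled to 10000 reads per cell (Seurat 4.3.0 in the submitters' notes). All these values came back as whole reads, within 0.01 of a read. For XN4, XN1 and CN4 the tables of all reads were also used. Mitochondrial reads were 22.6% of these in XN4 and 15.1% in both XN1 and CN4, which lowers levels from these tables most in XN4. In XN4, XN1 and CN4, genes that the normalized table did not list were read from the table of all reads. They had reads in at most 9 of the normalized table's cells, where names starting with Z or a were not counted. For KN1 all unlisted genes took a floor of 3 reads in the calls and no value in the text.

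With 1 library per line no test was made. Levels, shares, thinning (3200 or 3600 reads, shallower cells left out), co-capture and Leiden subclusters (resolution 0.3, 2000 variable genes, 30 components, 30 neighbors, leidenalg 0.10.2, scikit-learn 1.9.0) were computed in Python 3.11.15 and checked on simulated data. Doublets were not called. Leading subcluster genes were ranked by fold against the other cells of the line. Named were the 10 members, genes of the fixed pathway lists captured in at least 5% of the cells of a line, and up to 3 genes with r of at least 0.2 to each member captured in at least 5% of cells. *Pf4*, *Cxcl2*, *Ccl12*, *Ccl8*, *Ccl20*, rare receptors and cytokines, *Spp1*, *Fosl1*, *Dpep1*, *Hmga2* and leading genes were named after their values were seen. The members and lists were chosen with earlier results of these data known. Gene positions are from GENCODE release M21 and promoters from RefSeq, both GRCm38. Other settings were a 2-fold limit, 5% or no capture filter, cells with most reads left out, and shared barcodes left out.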

Additional observations from a re-analysis of the deposited data

How the results depend on the processing

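No paired analysis was possible because each line was 1 library. Of 60 recomputed member counts, 56 stayed within 1.5 times the reported ones. Among these 56 are the called members of XN1 and KN1, which were 0 in every setting. The exceptions were co-captured pairs: 12 in XN4 without depth strata, 2 in XN4 at a limit of 2 times, and 0 in CN4 both at that limit and when at least 2 reads were required of each gene, where 1 pair was left. No KN1 pair could be counted in the main setting, and KN1 pairs are not among the recomputed counts. The called XN4 members numbered 4 to 6, the 6 at the 2-fold limit, and CN4 had *Cxcl14* in each setting. Apart from the main setting, the share of all genes called is given only where unlisted KN1 genes were reset. The other counts are therefore not set against all genes. With unlisted KN1 genes at the reads of 9 cells, XN4 called 4 members and 4.32% of all genes. Direction was kept by 71 of 74 recomputed level ratios, between lines or between the *Spp1* subcluster and other XN4 cells, and by 40 of 40 share ratios, but 26 and 17 of these moved in size beyond the counting interval of the main ratio. Leaving out each gene's top 1% of cells moved the level ratios between lines most, except those of *Ccl2*, *Cxcl1* and *Cx3cl1*. On the log2 scale *Ccl7* (XN4 to XN1) went from 5.14 to 7.03, *Cxcl5* from 3.05 to 4.36 and *Cxcl16* from 3.15 to 1.85. *Ccl11* (XN4 to CN4) went from 9.26 to 11.59, *Cxcl12* from 6.63 to 10.59 and *Cxcl14* (CN4 to XN4) from 3.28 to 6.71. For the last 3 and for *Cxcl16* these cells held 100% of the reads of the lower line, which was then set at the floor of 3 reads. *Cxcl14* was at 2.5 and *Ccl11* at 10.19 in the tables of all reads. Between lines the exception was *Cxcl1*, XN4 to XN1, at -0.07 on the log2 scale in the tables of all reads (0.37 in the normalized tables). The denominator then includes mitochondrial reads (22.6% in XN4, 15.1% in XN1) and ribosomal protein reads (6.38% and 5.55%), and the cells differ. The part of these in the turn of *Cxcl1* was not tested. The log2 ratios of the *Spp1* subcluster of XN4 to the other cells reversed to 0.19 for *Ccl11* and 0.33 for *Cx3cl1* with 1000 variable genes, for which the cause was not tested. The settings that leave out shared barcodes or reset unlisted KN1 genes were chosen after seeing the data. Depth limits the rare genes: *Cxcl16*, *Ackr3* in XN4 and *Ccl11* in XN1 rest on 115, 7 and 3 reads in the cells of the normalized tables.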

Other observations

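The few CN4 cells with *Ccl11* were mostly cells with collagen reads, a division made after the values were seen. Of 18157 CN4 cells, 104 had at least 2 reads of *Col3a1*, and these held 16 of the 21 cells with *Ccl11*, a share of 15.4% (exact interval 9.06 to 23.8) against 0.0277% (0.00899 to 0.0646) in the other 18053 cells. *Cxcl12* was captured in 12.5% (6.83 to 20.4) of the *Col3a1* cells and 1.10% of the others, and *Ccl7* in 4.81% (1.58 to 10.9) and 0.399%. *Cxcl14*, the CN4 member, was also captured in more of them, 13.5% (7.56 to 21.6) against 6.22%. *Cx3cl1* was captured in 5.77% (2.15 to 12.1) and 10.6%. Median reads per cell were 9844.5 and 9167, and *Olig1* was captured in 34.6% of the *Col3a1* cells and 88.4% of the others.

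Of the 21 CN4 cells with *Ccl11*, 0 carried a barcode that the XN4 library also held and 2 (9.52%) one that the XN1 library held, against 0.931% and 1.76% of all CN4 cells. With 21 cells these shares are imprecise. In XN1, 11 cells had at least 2 reads of *Col3a1*, and 1 of them had *Ccl11*, as had 2 of the other 14441 cells.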
